A study of Mus musculus with 10 samples.

Results

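The genes described here encode the nuclear-made parts of the last stages of mitochondrial respiration: complex III, its electron carrier cytochrome c, complex IV (cytochrome c oxidase) and the ATP synthase. They were taken by name from the table of 34745 genes: names starting with Uqcr, with Cox4 to Cox8 or with Atp5, together with Cyc1 and Cycs. This gave 45 genes, of which 9 belong to complex III, 1 is cytochrome c, 18 belong to complex IV and 17 carry names of the ATP synthase. Pseudogene names ending in -ps, with or without a number, were left out. These were Atp5l2-ps (36 to 100 counts per library), Atp5l-ps1 (2 to 15 counts), Atp5k-ps2 (0 to 2 counts) and Atp5l-ps2 (0 counts in all 10 libraries).

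The RNA came from peritoneal lavage cells, a mixture of cells rinsed from the abdominal cavity, in mice made septic by cecal ligation and puncture (CLP), which releases gut bacteria into the abdomen. The design text compares amlexanox, a small anti-inflammatory molecule, with vehicle, and the labels name 5 libraries AX 6 to AX 10 and 5 libraries NC 1 to NC 5. AX was therefore read as amlexanox-treated CLP mice and NC as vehicle-treated CLP mice, although neither abbreviation is spelled out. Strain, sex, age, dose and time of sampling are not given in the labels, no uninjured mice are among the samples, and nothing says that each library came from a separate animal, so p-values may measure only technical spread.

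Complex III takes electrons from ubiquinol and hands them to cytochrome c, complex IV passes them to oxygen, and both pump protons across the inner mitochondrial membrane. The ATP synthase lets protons flow back through a rotating ring in the membrane (Fo) that drives the catalytic head (F1). The core redox subunits of complex IV, cytochrome b of complex III and 2 membrane subunits of the ATP synthase are encoded by mitochondrial DNA, and the nuclear genes supply all the other subunits. Activated neutrophils and inflammatory macrophages are known to draw much of their ATP from glycolysis, and cytochrome c also triggers cell death when it leaves the mitochondrion.

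Nuclear respiratory genes are known for promoters with sites of the factor NRF1 and of ETS factors such as GABPA, so start regions of genes that the results turn on are shown first, with and without such letters. Each stretch runs 5′ to 3′ on the gene's strand from 120 bases before the RefSeq start (build GRCm38.p6) to 30 bases from the start onward, in lower case with motif letters in capitals. The motifs searched on both strands were CGCANGCG for NRF1, CCGGAAG for ETS factors and ATGGCGG for YY1, none of which contains another. Capitals that spell none of these hold the reverse complement. Uqcr11 had the smallest unadjusted p and Atp5f1 the largest difference of the 39 genes, Cycs and Uqcrh were highest in AX 8 and NC 5, and Atp5b varied the other way across libraries.
Uqcr11: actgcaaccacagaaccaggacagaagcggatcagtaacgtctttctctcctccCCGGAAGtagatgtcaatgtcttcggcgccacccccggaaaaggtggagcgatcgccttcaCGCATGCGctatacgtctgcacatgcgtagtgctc
Cycs: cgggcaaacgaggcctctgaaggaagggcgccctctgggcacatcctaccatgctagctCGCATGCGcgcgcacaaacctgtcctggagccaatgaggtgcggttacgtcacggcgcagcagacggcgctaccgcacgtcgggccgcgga
Uqcrh: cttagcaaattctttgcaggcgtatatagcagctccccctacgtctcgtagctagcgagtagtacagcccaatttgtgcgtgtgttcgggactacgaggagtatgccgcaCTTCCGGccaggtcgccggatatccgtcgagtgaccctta
Atp5b: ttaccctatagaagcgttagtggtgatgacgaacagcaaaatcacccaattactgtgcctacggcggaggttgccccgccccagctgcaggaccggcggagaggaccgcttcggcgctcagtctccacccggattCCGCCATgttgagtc
Atp5f1: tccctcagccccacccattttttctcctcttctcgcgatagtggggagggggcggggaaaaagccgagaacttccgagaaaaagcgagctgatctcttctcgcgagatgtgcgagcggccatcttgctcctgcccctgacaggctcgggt
Cox6a1: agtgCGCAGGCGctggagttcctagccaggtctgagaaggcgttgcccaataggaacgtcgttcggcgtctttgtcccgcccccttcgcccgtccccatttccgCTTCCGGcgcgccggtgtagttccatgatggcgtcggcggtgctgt
These lie at chr10:80406792-80406941 (minus strand), chr6:50566540-50566689 (minus strand), chr4:116075041-116075190 (minus strand), chr10:128083187-128083336 (plus strand), chr3:105959234-105959383 (minus strand) and chr5:115348929-115349078 (minus strand). The capitals mark an ETS and an NRF1 match in Uqcr11, an NRF1 match in Cycs, an ETS match in Uqcrh, a YY1 match in Atp5b, no match in Atp5f1 (RefSeq Atp5pb, whose start lies 836 bases from that of the deposited gene), and an NRF1 and an ETS match in Cox6a1, which held the narrowest range of the 39 tested genes across the libraries.

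RefSeq start regions, from 250 bases before to 50 after the start, matched 35 of the 45 genes; Atp5a1, Cox4i1, Cox4i2, Cox6a2, Cox6c, Cox8c, Cyc1, Uqcrb, Uqcrc2 and Uqcrq had no match. Among the 32 matched genes that were also tested, 13 held the NRF1 letters (40.6%), against 17.7% of the 9534 tested genes of the whole table with such a region. The ETS letters stood in 9 of the 32 (28.1%), against 19.1%, and the YY1 letters in 2 (6.25%), against 8.60%. The 13 genes with NRF1 letters were Uqcr10, Uqcr11, Uqcrc1, Cycs, Cox6a1, Atp5c1, Atp5g2, Atp5g3, Atp5h, Atp5k, Atp5l, Atp5o and Atp5sl. A match describes the letters only. For Atp5g2 the RefSeq start lies 1305 bases from that of the deposited gene. For Atp5d and Atp5j2, without such letters, the distance is 3643 and 521 bases. In the shorter window from 100 bases before the start, 10 genes (31.2%) held the NRF1 letters, 8 (25.0%) the ETS letters and 2 (6.25%) the YY1 letters, against 13.1%, 15.01% and 6.63% of all tested genes with such a region. Any of the 3 motifs stood in 18 of the 32 (56.25%) in the longer window, against 38.1% of all tested genes with such a region.

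Library totals ran from 10221170 counts in NC 1 to 13806885 in NC 2, and values below are CPM (counts scaled to library size with TMM factors) unless FPKM, the deposited level per length, is named. Neutrophil marker genes summed to between 7891 and 18570 CPM in every library and those of large peritoneal macrophages to between 109 and 450 CPM. Markers of the mesothelium, the lining of the abdominal cavity, summed to 1537 CPM in AX 6 and 613 CPM in NC 1 and to between 90.1 and 271 CPM in the other 8. Stromal markers were likewise highest in AX 6 and NC 1, at 2905 and 1230.3 CPM. Erythroid (red blood cell) markers stood at 1822 and 843 CPM there, against 88.1 to 584 CPM in the other libraries. Gut epithelial markers reached 989 CPM in NC 1, 538 in AX 6 and 432 in NC 4. Transcripts of mitochondrial DNA took 4.47% (NC 2) to 20.1% (AX 10) of counts. Of striated muscle markers 1 of 9 could be tested, and Actc1 and Myh1 were at 0 counts in all 10 libraries. The fitted values of several of these lists lay mostly on one side of 0, with 0 members at an adjusted p under 0.05 by edgeR and 0 at an unadjusted p under 0.05. Lower in AX were 8 of 8 gut epithelial markers (median log2 difference -1.03). Higher in AX were 9 of 9 tested mesothelial markers (1.03), 8 of 8 stromal markers (0.57) and 9 of 10 macrophage markers (0.72), while 11 of 15 neutrophil markers were lower (-0.11). The part of any of these in the results below was not tested.

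The 39 genes that passed the filter on low counts were, with few exceptions, at slightly lower fitted values in AX, and none of the differences passed the test. By edgeR's quasi-likelihood test 0 of 39 had an adjusted p under 0.05, as did 0% of all 12264 genes tested; the smallest adjusted p among the 39 was 0.9999. The fitted value was lower in AX for 35 of the 39 (89.7%), against 46.4% of all genes tested. Their median log2 fold change was -0.13, within a range of -0.51 to 0.16, beside a median of 0.02 over all genes. The median of the members was -0.24 without AX 6 and -0.22 without NC 3, where that of all genes was -0.02 and 0.019. Genes measured in the same library are not replicates of a condition, so the count of 35 is a description without a test. In bulk RNA, fewer cells of a type and less RNA per cell cannot be told apart.

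At an unadjusted p under 0.05 there were 3 of 39 (7.69%), Uqcr11, Cox4i1 and Atp5f1, against 0.921% of all genes tested. All 3 were lower in AX, a direction in which 0.514% of all genes passed that unadjusted threshold. With DESeq2 the unadjusted count was 4, with Atp5d added (1.57% of all genes), and with limma-voom it was the same 3 (1.08% of all genes), while the adjusted count was 0 with both. No member had all AX values on one side of all NC values, which 0.139% of all genes did. When single libraries were left out the count was 0 without NC 5, AX 9 or AX 10. In these fits 0.908%, 1.16% and 1.14% of all genes passed the same unadjusted threshold. The count was 1 without NC 2 or AX 8 (0.849% and 1.08% of all genes). Without AX 6 it was 7 of 40 (3.07% of all genes), and without NC 1 it was 3 (3.49% of all genes). Why the counts differ between these fits was not tested. The log2 fold changes of the 3 genes kept their direction: -0.50 for Atp5f1, -0.49 for Uqcr11 and -0.47 for Cox4i1 without AX 9. They were smaller for Uqcr11 (-0.36) and Cox4i1 (-0.31) without NC 5 and for Atp5f1 (-0.38) without AX 8.

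**Figure D1:**
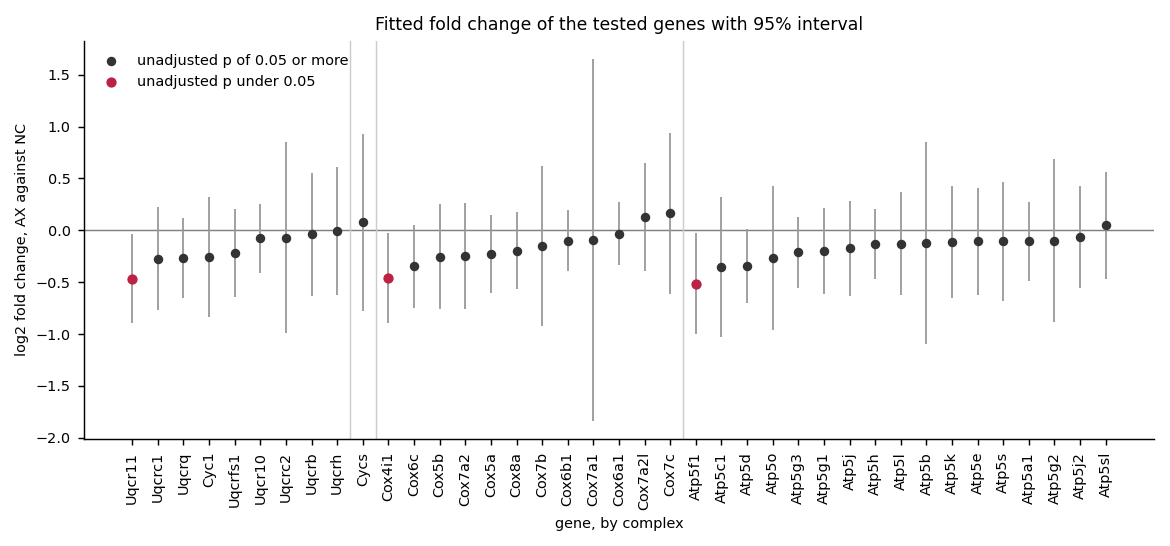
Log2 fold change, AX against NC, of the 39 tested genes (y axis) by complex (x axis; grey lines divide complex III, Cycs, complex IV and ATP synthase), with points for edgeR's fitted value and bars for its 95% interval. Of the 39 points 35 lie below 0, and the 3 in red (Uqcr11, Cox4i1 and Atp5f1) have intervals that end below 0 before adjustment.

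Summed over the 39 genes, the members took 2731 ± 377 CPM in AX and 3155 ± 191 CPM in NC (SD, n = 5 each). AX 7, AX 8, AX 9 and AX 10 lay between 2430.1 and 2647 CPM, below the NC range of 2874 to 3394 CPM. AX 6 stood at 3387 CPM, within the NC range, and is the library with the highest mesothelial and stromal marker sums; the part of those cells in its level was not tested. The sums weigh abundant genes most. In the mean log2 CPM over the 39 genes, AX 9 deviated by -0.052 from the mean over libraries and NC 3 by -0.064. On that scale AX 9 and AX 6 overlapped with NC, while AX 7, AX 8 and AX 10 lay below every NC library. With both AX 6 and NC 1 left out, 33 of 39 genes had lower fitted values. The median log2 fold change was then -0.17, beside 0.0048 over all genes.

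In complex III all 9 genes had lower fitted values in AX, and their median difference on the log2 scale was -0.22. Uqcr11, one of the smallest subunits, showed the largest difference of the complex. Its gene (ENSMUSG00000020163) lies on the minus strand of chromosome 10 from 80402997 to 80406830 (mm10). Its values in NC 1 to NC 5 were 18.7, 21.97, 16.2, 19.2 and 26.3 CPM, and in AX 6 to AX 10 they were 17.9, 11.5, 14.9, 15.5 and 14.4 CPM. All 5 AX libraries lay below the NC median, and only AX 6 reached into the NC range. The log2 fold change was -0.47 ± 0.20 (SE; 95% interval -0.90 to -0.04), with an unadjusted edgeR p of 0.0361. Permuting the libraries between the groups exactly, two-sided, gave p = 0.0159 for the difference of means, where the smallest possible is 0.00794. This exact test was run for 20 genes and not over all genes, and its p-values are unadjusted. Only its p-values under 0.05 are given with their genes. The others ran from 0.0556 (Cox6c) to 0.992 (Cycs). Uqcr11 was named by its edgeR p on the same values, so the exact p is not separate support.

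The 2 large core proteins, which face the mitochondrial matrix, were Uqcrc1 and Uqcrc2. Uqcrc1 stood at 95.3, 97.7, 69.0, 98.6 and 69.0 CPM in NC 1 to NC 5 and at 103, 73.6, 54.2, 75.5 and 48.8 CPM in AX 6 to AX 10. The groups overlapped, with AX 6 highest and AX 10 lowest of all 10, and the log2 fold change was -0.27 ± 0.23 (SE). Uqcrc2 stood at 79.3, 42.0, 40.7, 47.3 and 37.4 CPM in NC 1 to NC 5 and at 103, 46.7, 26.1, 39.9 and 19.1 CPM in AX 6 to AX 10. It varied 5.41-fold between AX 6 and AX 10, the widest range among the genes present in every library. Its log2 fold change of -0.07 ± 0.42 (SE) was 0.17 without NC 1, 0.07 without AX 8 and 0.13 without AX 10, so its direction depended on each of these libraries.

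The nuclear-encoded redox proteins of the complex are the Rieske iron-sulfur protein (Uqcrfs1) and cytochrome c1 (Cyc1). Uqcrfs1 was the most abundant complex III gene per length, with a mean of 80.8 FPKM and a range of 56.2 to 129.99 FPKM. Its values were 156, 98.5, 118, 115 and 103 CPM in NC 1 to NC 5 and 138, 95.6, 104, 90.9 and 79.4 CPM in AX 6 to AX 10. The highest library, NC 1, and AX 6 led their groups, and the log2 fold change was -0.22 ± 0.19 (SE). Cyc1 was lowest in AX 8 (23.5 CPM) and highest in NC 1 (60.3 CPM), and had a log2 fold change of -0.26 ± 0.26 (SE).

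Of the small subunits, Uqcrq stood at 112, 96.7, 110.3, 109.9 and 147 CPM in NC 1 to NC 5 and at 119, 84.7, 101, 98.9 and 74.1 CPM in AX 6 to AX 10. Its groups overlapped, and the log2 fold change was -0.27 ± 0.18 (SE). Uqcr10 had the narrowest range of the complex, between 32.0 and 44.3 CPM. Uqcrb, a subunit near the ubiquinone site, ran from 28.5 to 70.0 CPM, and its fitted difference was -0.04 ± 0.27 (SE). Uqcrh, the acidic hinge protein that helps cytochrome c meet the complex, had equal group means of 144 CPM, with SDs of 59.2 in AX and 35.9 in NC.

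Cycs, which encodes cytochrome c, was 1 of the 4 genes with a higher fitted value in AX, at a log2 fold change of 0.08 ± 0.39 (SE). It stood at 13.1, 13.6, 14.1, 15.96 and 31.9 CPM in NC 1 to NC 5 and at 11.6, 12.4, 32.5, 10.8 and 26.4 CPM in AX 6 to AX 10. AX 8, NC 5 and AX 10 thus lay between 26.4 and 32.5 CPM and the other 7 libraries between 10.8 and 15.96 CPM. The difference was negative (-0.21) without AX 8, and also without AX 10, NC 1 or NC 2, with limma-voom, with library totals alone and with FPKM, so no direction can be given. About 25.9% of its 50-base stretches occur in other genes, among them 10 pseudogenes, so reads may be shared with them.

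In complex IV 10 of 12 tested genes had lower fitted values in AX and 2 had higher ones, and the median log2 difference of the 12 was -0.17. Cox4i1 encodes the common form of subunit 4, the largest nuclear subunit, to which ATP binds as a brake on the enzyme. The gene (ENSMUSG00000031818) lies on chromosome 8 from 120668222 to 120674207 (mm10). It stood at 250.01, 251, 354, 317 and 455 CPM in NC 1 to NC 5 and at 226, 272, 247, 241 and 198 CPM in AX 6 to AX 10. All AX libraries lay below the NC median and NC 5 was highest, but NC 1 and NC 2 fell inside the AX range. The log2 fold change was -0.46 ± 0.20 (SE; 95% interval -0.89 to -0.03), with an unadjusted edgeR p of 0.0387 and an exact permutation p of 0.0397. Without NC 5 it was -0.31.

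Cox6c, a small membrane subunit, stood at 73.4, 65.7, 65.9, 59.2 and 81.9 CPM in NC 1 to NC 5 and at 66.4, 61.9, 37.7, 51.9 and 54.2 CPM in AX 6 to AX 10. AX 8 was lowest and the groups overlapped through AX 6 and AX 7, with a log2 fold change of -0.35 ± 0.18 (SE). Cox5a, a subunit on the matrix side, stood at 109, 117, 108, 117 and 139.8 CPM in NC 1 to NC 5 and at 74.3, 94.4, 124, 94.6 and 117 CPM in AX 6 to AX 10. AX 6, where many other members were at their highest, held its lowest value, and the log2 fold change was -0.23 ± 0.17 (SE). Its partner Cox5b, a zinc-binding subunit, was lowest in AX 8 (26.8 CPM) and highest in NC 1 (54.5 CPM).

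Cox6b1, which helps to pair complex IV into dimers on the side facing cytochrome c, was the most abundant gene of the whole set per length, at a mean of 194 FPKM (166 to 243). It stood at 99.1, 108, 92.3, 107 and 99.4 CPM in NC 1 to NC 5 and at 93.0, 80.9, 102, 93.3 and 102 CPM in AX 6 to AX 10. The groups covered nearly the same range, and the log2 fold change was -0.10 ± 0.13 (SE; 95% interval -0.39 to 0.19). Cox8a followed at 184 FPKM, with 113, 115, 91.0, 107 and 106 CPM in NC 1 to NC 5 and 122, 86.4, 76.0, 101 and 77.9 CPM in AX 6 to AX 10. Its highest value was in AX 6 and its lowest in AX 8, and its log2 fold change was -0.20 ± 0.17 (SE). Cox6a1 had the narrowest range from lowest to highest library, with 104, 104, 86.5, 103 and 89.1 CPM in NC 1 to NC 5 and 112, 91.4, 89.7, 91.6 and 91.4 CPM in AX 6 to AX 10, a 1.29-fold range. Its log2 fold change was -0.03 ± 0.14 (SE).

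The order of levels per length depends on the gene length behind FPKM. Over the 39 genes the authors' length was 0.0793 to 2.28 times the exonic bases of GENCODE M21, with a median of 1.41. Per exonic kilobase of that annotation, Cox4i1 came first in complex IV, Uqcrh in complex III and Atp5a1 in the ATP synthase. Cox5a held rank 3 of complex IV by FPKM and rank 6 per exonic kilobase, since its length behind FPKM is 690.0 bases against 2101 exonic bases.

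**Figure D2:**
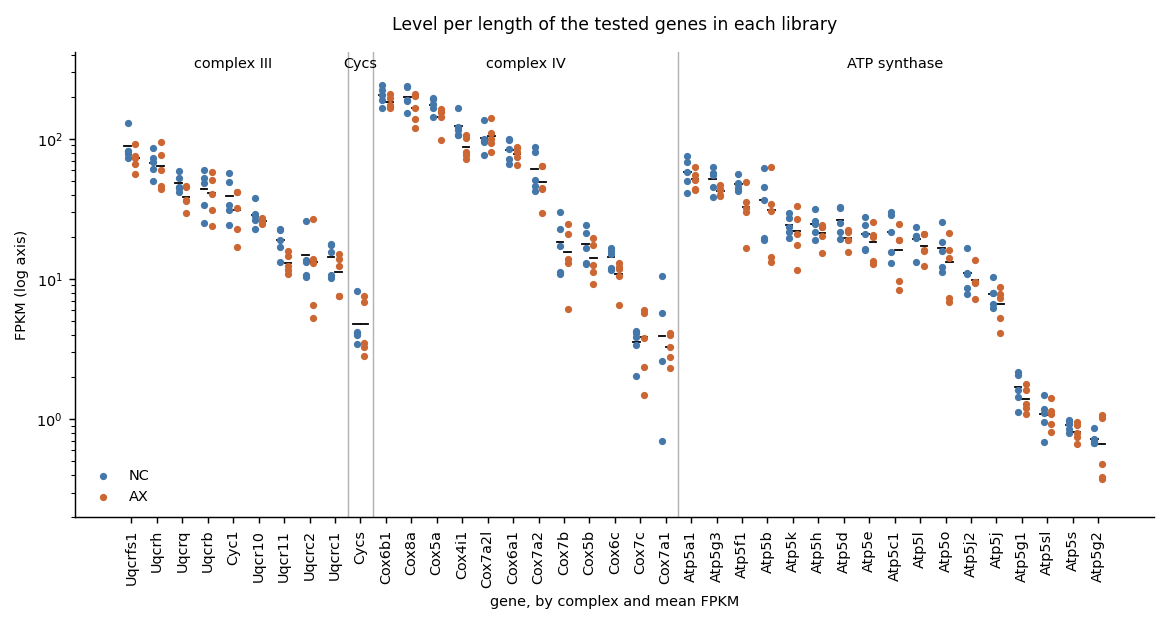
FPKM of the 39 tested genes in each library (y axis, log scale), ordered by complex and by mean (x axis); points are libraries, blue for NC and orange for AX, and black lines are group means. Complex IV genes span from Cox6b1 (mean 194 FPKM) to Cox7a1 (3.59), whose value of 0 in NC 5 cannot be drawn on this axis, and AX and NC points overlap for every gene shown.

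Several subunits of complex IV have forms made in muscle, testis or lung, and nearly all of these were at or near 0. Cox7b2, Cox8b and Cox8c had 0 counts in all 10 libraries, which allows up to 3 counts per library, and Cox6a2, the form of heart and skeletal muscle, had a single count, in AX 8. Cox6b2, known from testis, had 0 to 15 counts. Cox4i2, the form known from lung and induced by low oxygen, had 0 to 28 counts and made up 0 to 2.64% of Cox4i1 and Cox4i2 FPKM together, with the highest share in AX 8. None of these 6 passed the filter on low counts. Cox7a1, the heart and muscle form of subunit 7A, passed it with 0 to 3.37 CPM, highest in NC 1, the library that also held the highest sum of striated muscle markers (17.1 CPM against 1.302 to 5.74 in the others); the part of muscle RNA in it was not tested. Its broadly expressed counterpart Cox7a2 stood at 25.8 to 58.0 CPM.

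The 2 complex IV genes with higher fitted values in AX were Cox7a2l and Cox7c. Cox7a2l, which encodes the factor SCAF1 that ties complex III to complex IV in supercomplexes, stood at 98.4, 95.9, 126, 89.7 and 161 CPM in NC 1 to NC 5 and at 102, 103, 187, 101 and 131 CPM in AX 6 to AX 10. AX 8 and NC 5 were highest, the groups overlapped, and the log2 fold change was 0.13 ± 0.24 (SE). Cox7c, a small membrane subunit, stood at 6.39, 6.60, 6.61, 6.96 and 3.69 CPM in NC 1 to NC 5 and at 2.86, 6.38, 4.803, 9.32 and 10.5 CPM in AX 6 to AX 10. Its log2 fold change of 0.16 ± 0.35 (SE) was -0.05 without AX 10. Cox7c had a mean of 3.70 FPKM, and 22.1% of its 50-base stretches occur in other genes, all 3 of them pseudogenes. Cox7b, a subunit next to it in the complex, varied 3.83-fold between AX 8 (12.01 CPM) and AX 6 (46.0 CPM).

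One further subunit of complex IV has forms that replace each other: Ndufa4, named for complex I but part of complex IV, and AA467197 (Nmes1), a related protein known to be induced by inflammation and to take the place of Ndufa4. AA467197 stood at 299, 375, 387, 338 and 326 FPKM in NC 1 to NC 5 and at 185, 322, 616, 497 and 405 FPKM in AX 6 to AX 10. Ndufa4 stood at 15.3, 16.7, 14.6, 10.95 and 8.51 FPKM in NC 1 to NC 5 and at 24.4, 11.7, 6.43, 20.8 and 6.72 FPKM in AX 6 to AX 10. AA467197 was thus the prevailing mRNA in every library, with 88.4% (AX 6) to 99.0% (AX 8) of the FPKM of both genes. The share was 95.6 ± 4.26% in AX and 96.3 ± 0.914% in NC (SD, n = 5 each), and an exact two-sided permutation test gave p = 0.913. AX 6, with the lowest share, was also the library with the highest mesothelial and stromal marker sums; the part of those cells was not tested. The log2 fold change of AA467197 was 0.29 ± 0.30 (SE) and that of Ndufa4 0.14 ± 0.37 (SE).

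**Figure D3:**
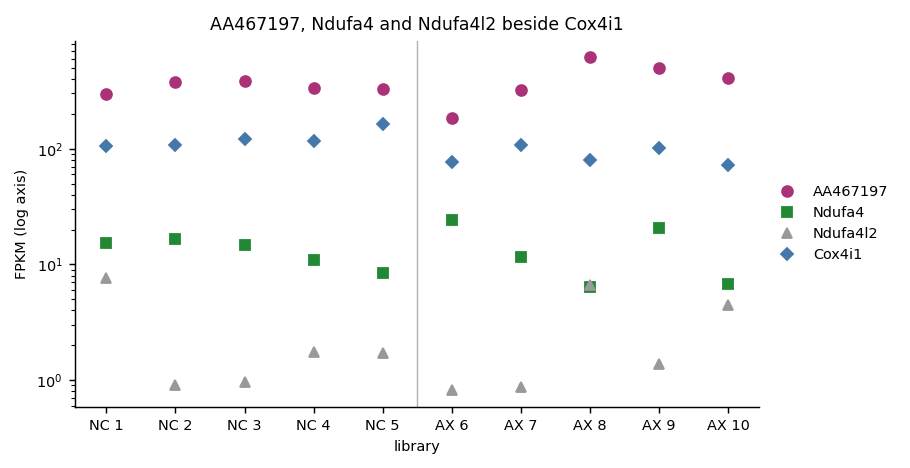
FPKM (y axis, log scale) of AA467197, Ndufa4, Ndufa4l2 and, for reference, Cox4i1 in each of the 10 libraries (x axis; the grey line divides NC from AX). AA467197 lies above Cox4i1 and Ndufa4 below it in all 10 libraries.

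Of the 17 genes that carry names of the ATP synthase, 16 had lower fitted values in AX, and the median log2 difference was -0.13. Atp5s and Atp5sl are counted here although they do not stand for subunits. The exception with a higher value was Atp5sl (0.05). Atp5f1, which encodes subunit b of the peripheral stalk that holds the head still, showed the largest difference of all 39. The gene (ENSMUSG00000000563) lies on the minus strand of chromosome 3 from 105942698 to 105960099 (mm10). It stood at 217, 288, 282, 288 and 288 CPM in NC 1 to NC 5 and at 205, 275, 112, 182 and 181 CPM in AX 6 to AX 10. NC 2 to NC 5 were nearly equal and above every AX library, while NC 1 lay between AX 6 and AX 7. The log2 fold change was -0.51 ± 0.22 (SE; 95% interval -0.998 to -0.03), with an unadjusted edgeR p of 0.0404 and an exact permutation p of 0.0159. Exons of Wdr77 and Gm42890 on the opposite strand overlap 8.21% of its exonic bases, and whether counting used the strand is not stated for these files.

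The other stalk subunits, Atp5h (subunit d), Atp5j (F6) and Atp5o (OSCP, which caps the head), had log2 fold changes of -0.13, -0.17 and -0.27, with SEs of 0.15, 0.21 and 0.32. Atp5o varied 3.08-fold, between AX 10 (23.8 CPM) and AX 6 (73.3 CPM). Opposite-strand genes cover 35.6% of its exonic bases, the highest such share among the 39. Another annotated gene of the same name covers 12.3% of them on the same strand.

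The head is built of the alpha and beta subunits, which form the catalytic sites, and of the gamma, delta and epsilon subunits of the turning stem. Atp5a1 (alpha), the most abundant ATP synthase gene per length at 55.0 FPKM, stood at 349, 317, 238, 312 and 275 CPM in NC 1 to NC 5 and at 366, 256, 268, 260.1 and 237 CPM in AX 6 to AX 10. AX 6 stood apart above the other AX libraries, and the log2 fold change was -0.10 ± 0.17 (SE). Atp5b (beta) stood at 378, 279.2, 143, 259 and 141 CPM in NC 1 to NC 5 and at 479, 204, 106, 211 and 103 CPM in AX 6 to AX 10. It varied 4.65-fold, and its log2 fold change of -0.12 ± 0.44 (SE) turned positive without NC 1 (0.10), AX 8 (0.04) or AX 10 (0.06). Although alpha and beta stand in equal number in the enzyme, the ratio of Atp5a1 to Atp5b FPKM ran from 1.005 in AX 6 to 3.31 in AX 8.

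Atp5c1 (gamma) stood at 95.1, 91.1, 50.9, 79.3 and 58.1 CPM in NC 1 to NC 5 and at 97.4, 65.2, 34.6, 60.1 and 35.9 CPM in AX 6 to AX 10. AX 8 and AX 10 were lowest and AX 6 highest, and the log2 fold change was -0.35 ± 0.31 (SE). Atp5d (delta) stood at 103, 104, 76.8, 80.1 and 93.2 CPM in NC 1 to NC 5 and at 85.6, 65.5, 78.7, 71.6 and 58.6 CPM in AX 6 to AX 10. All AX libraries lay below the NC median, the log2 fold change was -0.34 ± 0.16 (SE; 95% interval -0.70 to 0.01) and the exact permutation p was 0.0476. Atp5e (epsilon) was lowest in AX 7 (32.7 CPM) and highest in AX 10 (66.5 CPM), and had a log2 fold change of -0.11 ± 0.23 (SE).

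The rotating c ring is one protein encoded by 3 genes, Atp5g1, Atp5g2 and Atp5g3, which differ in the targeting peptide that is removed. Atp5g3 supplied 94.3% to 96.5% of their FPKM in all 10 libraries, 95.4 ± 1.0003% in AX and 95.5 ± 0.551% in NC (SD, n = 5 each; exact permutation p = 0.794). It stood at 163, 149, 147, 115 and 168 CPM in NC 1 to NC 5 and at 139, 111, 133, 114 and 141 CPM in AX 6 to AX 10. Every AX value lay below the NC median, the groups overlapped, and the log2 fold change was -0.21 ± 0.15 (SE). Atp5g1 stood at 12.2 to 18.8 CPM. Atp5g2 stood at 0.867 to 2.35 CPM, and 38.3% of its 50-base stretches occur in other genes.

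The membrane subunits Atp5j2 (f), Atp5k (e) and Atp5l (g) help pair ATP synthases at the folds of the inner membrane. Atp5j2 stood at 58.0, 38.4, 37.5, 43.7 and 31.7 CPM in NC 1 to NC 5 and at 58.8, 36.2, 32.9, 32.9 and 39.1 CPM in AX 6 to AX 10. NC 1 and AX 6 were highest, and the log2 fold change of -0.07 ± 0.22 (SE) was 0.08 without NC 1. Atp5k and Atp5l had log2 fold changes of -0.11 and -0.13, and both were lowest in AX 6, at 10.6 and 6.94 CPM. The remaining 2 names do not stand for subunits: Atp5s, factor B (RefSeq Dmac2l), was at 1.05 to 1.53 CPM, and Atp5sl (RefSeq Dmac2), known as an assembly factor of complex I, was at 4.09 to 7.08 CPM with a fitted difference of 0.05 ± 0.23 (SE).

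Subunits of the same complex did not follow one course across the libraries, and the main contrast among them lay between libraries rather than between AX and NC. This pattern was chosen after the values were seen and is given without a test. Atp5b, Uqcrc2, Atp5c1, Atp5o and Cox7b were highest in AX 6, with NC 1 next, and lowest in AX 8 or AX 10. Uqcrh, Cycs and Cox7a2l were instead highest in AX 8, followed by NC 5. Uqcrh stood at 116, 131, 174, 111 and 191 CPM in NC 1 to NC 5 and at 103, 95.7, 236, 114 and 170.0 CPM in AX 6 to AX 10, so that its FPKM relative to that of Uqcrc2, of the same complex, ran from 1.61 in AX 6 to 14.6 in AX 8 and 14.4 in AX 10. The ratio of Atp5e to Atp5b FPKM likewise ran from 0.203 in AX 6 to 1.77 in AX 10. AX 10, AX 8 and NC 5 are the 3 libraries with the highest share of mitochondrially encoded transcripts, at 20.1%, 18.6% and 15.7% of counts. AX 6 and NC 1 had the highest marker sums of mesothelial, stromal, erythroid and gut epithelial cells. The part of any of these in the pattern was not tested.

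**Figure D4:**
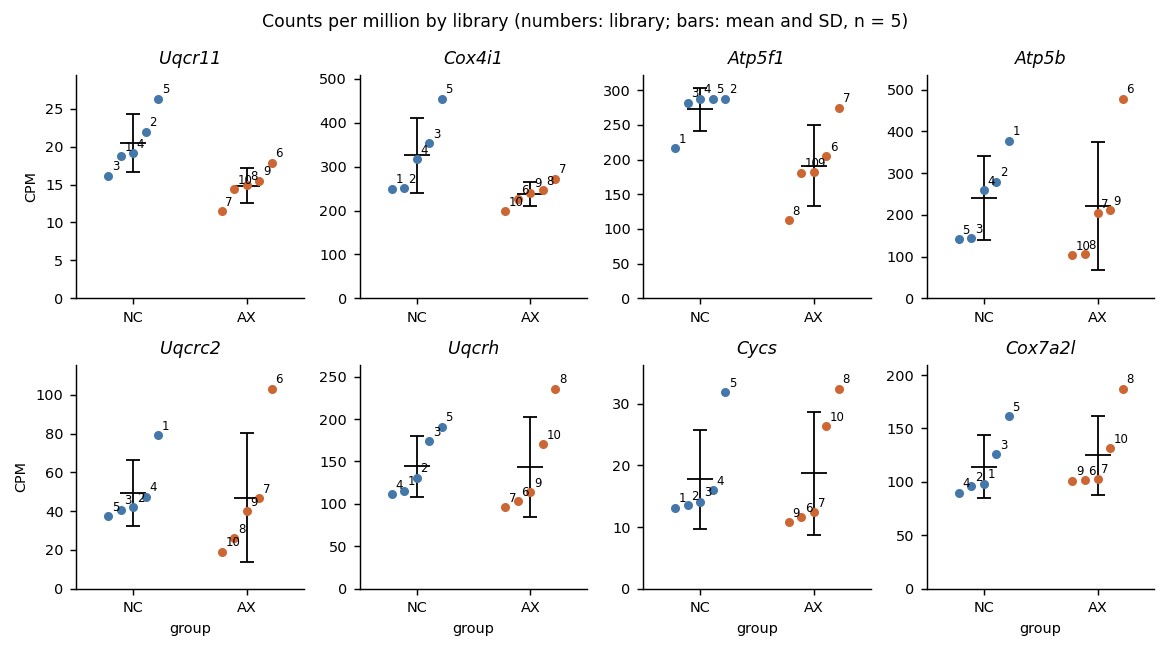
CPM (y axis, from 0) of 8 genes in NC (blue) and AX (orange), each point a library with its number, bars showing mean and SD (n = 5). AX 6 is far above the other AX libraries for Atp5b and Uqcrc2, while AX 8 is highest for Uqcrh, Cycs and Cox7a2l.

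Over the 39 genes, AX 6 was the highest library for 12, NC 5 for 7, and NC 1 and NC 2 for 6 each, while AX 7, AX 9 and NC 4 were highest for none. AX 8 was the lowest library for 10 genes, AX 10 for 9, AX 7 for 6 and AX 6 for 5, and NC 1 and NC 2 for none. AX 6 was thus the highest library for some subunits and the lowest for others, among them Cox5a, Cox7c, Atp5k and Atp5l. No gene was nearly absent from a library: of the 29 with a group median of at least 20 CPM, 0 fell 8-fold below it in any library, against 3.63% of the 5847 such genes of the table.

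**Figure D5:**
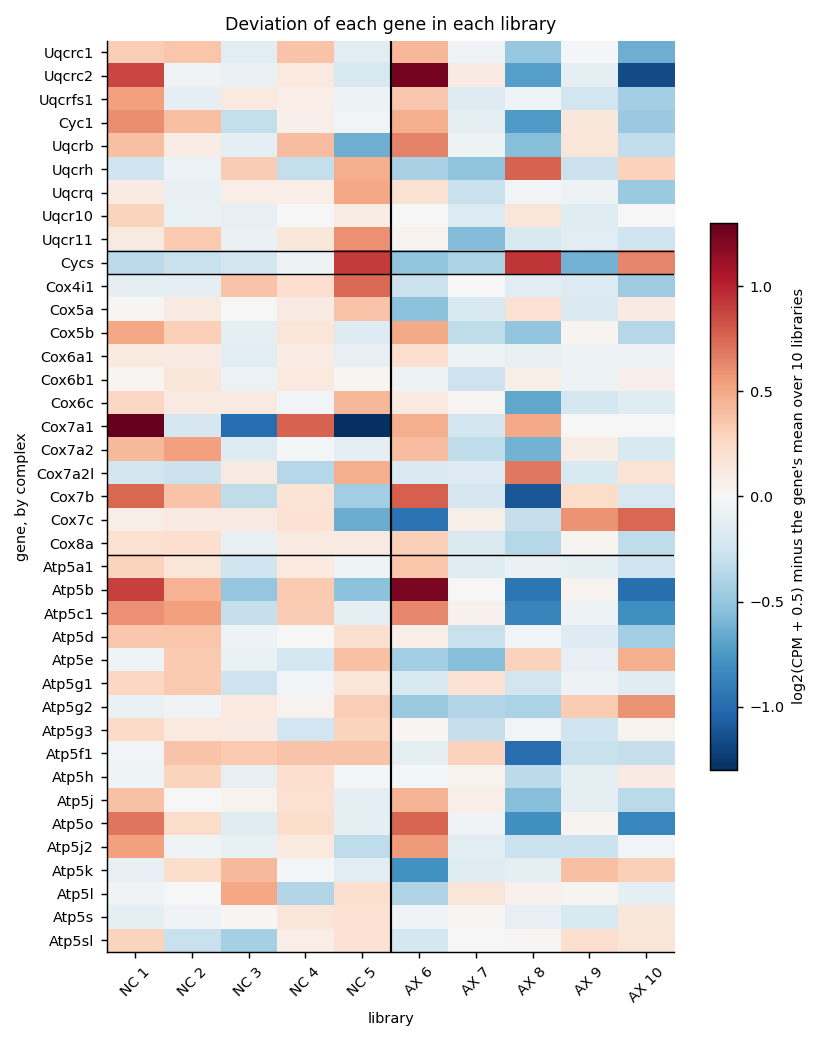
Log2(CPM + 0.5) of each tested gene (rows, by complex) in each library (columns; the vertical line divides NC from AX) minus the gene's mean over the 10 libraries, red above and blue below. Atp5b and Uqcrc2 are red in AX 6 and NC 1 and blue in AX 8 and AX 10, and Uqcrh and Cycs show the opposite colours in AX 8 and AX 10; differences beyond 1.3 are drawn in the end colours.

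The partners encoded by mitochondrial DNA had higher fitted values in AX in 6 of 6 cases (median log2 difference 0.55), and 0 of 6 had an unadjusted p under 0.05 by edgeR. mt-Co1, the catalytic subunit of complex IV, had a log2 fold change of 0.57 ± 0.47 (SE). Its FPKM relative to that of Cox4i1 was 371 ± 212 in AX and 173 ± 49.8 in NC (SD, n = 5 each; exact two-sided permutation p = 0.111). AX 8 and AX 10 were highest, at 584 and 596, and AX 6, at 338, also lay above the NC range of 99.9 to 231. AX 7 and AX 9, at 188 and 148, lay inside that range. mt-Atp6, a membrane subunit of the ATP synthase, split the libraries in a way unlike its neighbour mt-Atp8: it stood at 1081, 548, 1147, 13168 and 16631 CPM in NC 1 to NC 5 and at 14200.1, 1166, 2901, 828 and 21686 CPM in AX 6 to AX 10. The same libraries held 1034 to 6968 CPM of mt-Atp8, which is made on a shared transcript. The 2 genes overlap on the mitochondrial DNA, so the values of both are uncertain where the counting could split their reads.

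Other nuclear parts of the chain, complexes I and II, also had more lower than higher fitted values. Of 45 genes named Nduf, most of them subunits of complex I, 36 had lower fitted values in AX (median log2 difference -0.20), and 1 had an unadjusted p under 0.05, Ndufb8 (-0.44 ± 0.17, SE). In complex II all 4 genes were lower, with a median of -0.06, below the size of the -0.13 of the members, the largest difference being in Sdhb (-0.43 ± 0.27, SE). None of these passed after adjustment.

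Among the assembly factors of complex III 5 of 6 had lower fitted values (median -0.11), and for complex IV 16 of 24 (median -0.08). Pet117, a small complex IV assembly factor, was the only one of them with an unadjusted p under 0.05, and it was near the limit of detection: 0.576 to 3.96 CPM in NC and 0 to 1.38 CPM in AX. All 8 tested ATP synthase assembly factors and partners were lower, with a median of -0.11, among them Atpif1, the inhibitor that blocks the reverse reaction (-0.23 ± 0.18, SE), and the phosphate carrier Slc25a3 (-0.15 ± 0.23, SE). Higd1a and Higd2a, small proteins of the supercomplexes, were both lower, at -0.27 ± 0.37 and -0.13 ± 0.18 (SE). None of these lists had a member with an adjusted p under 0.05 by edgeR.

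Regulators of these genes showed no common direction, with 6 of 12 tested lower and 6 higher and a median log2 difference of 0.01. Nrf1 and Gabpa, whose motifs are shown above, stood at 17.2 ± 4.67 and 45.7 ± 14.96 CPM in AX and at 19.8 ± 9.83 and 54.9 ± 10.4 CPM in NC (SD, n = 5 each). Tfam, which packs and transcribes mitochondrial DNA, stood at 34.8 ± 9.40 and 28.4 ± 3.87 CPM. The coactivator genes Ppargc1a and Ppargc1b and the receptor gene Esrrg were too low to be tested. Of 11 genes of mitochondrial import and mass, 7 were lower, with a median of -0.06.

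Reads from near-identical copies can blur some of these values. Of the 39 tested genes 9 share over 10% of their 50-base stretches with other annotated genes, and 0 share over 50%; the median is 0.954%. The 9 are Atp5g2, Cycs, Uqcrb, Cox7c, Atp5h, Atp5o, Cox7a2l, Cox5b and Atp5g1. Exons of 11 of the 39 overlap a gene on the opposite strand, among them Cox4i1 with Emc8 over 9.94% and Uqcrc2 with Pdzd9 over 19.7% of their exonic bases. On the same strand 2 do so, Atp5o with another gene of that name (12.3%) and Atp5g2 with Mir688 (4.48%).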

How the data were processed

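Poly(A) RNA of 10 libraries of mouse peritoneal lavage cells was sequenced. The authors used HISAT2 2.0.4 and mm10, per the submitters' processing notes; for the counter, the annotation and strandedness, "not given in the sources used here" applies. A table deposited by the authors holds whole-number counts per gene, not normalised, and FPKM, which the authors scaled to the library total and a gene length. Pairs of libraries were far from equal within sampling noise (chi-square 41.8 to 327 times its degrees of freedom), and each was kept as a sample. This cannot show that they came from separate animals, since separate preparations of the same RNA could also differ by more than counting noise. Members, lists and tests were chosen with earlier results of these data known.

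The test was run in edgeR 4.0.16 under R 4.3.3: filterByExpr by group (12264 of 34745 genes kept), TMM, the quasi-likelihood F test of AX against NC without covariates, and Benjamini-Hochberg adjustment over all tested genes at 0.05. The SE of a log2 fold change is its size over the root of F. The step was tested on simulated data. Genes given with every library were those with an unadjusted p under 0.05, the 4 smallest p in each complex (complex III with cytochrome c), a library apart by Dixon's value, or the highest FPKM of a complex; Uqcrh and Cox7a2l were chosen after their values were seen. Single genes and ratios were compared in Python 3.11.15 with numpy 2.4.6 by exact two-sided permutation over 252 arrangements. A gene was nearly absent where its CPM plus 0.5 lay 8-fold under the larger group median. Alternatives were DESeq2 1.42.0, limma-voom (limma 3.58.1), totals without TMM, mitochondrial counts left out, no filter, a filter of 50 counts in 5 libraries, limma on log2(FPKM + 1) and each library left out; AX 6 and NC 1 left out together was added after seeing the data. Motifs came from RefSeq start regions, overlaps and shared 50-base stretches from GENCODE M21. No molecular identifiers are described, so the interval of a count covers counting error only.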

Additional observations from a re-analysis of the deposited data

Results flagged for a closer look

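Within a group of 5 libraries, a value was singled out when its distance to the nearest other value exceeded 0.71 of the group's range (Dixon's 95% value). This held for 9 of the 78 groups formed by the 39 genes, 11.5%, against 13.1% of the groups of all genes tested, where chance alone gives about 1 in 20.

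AX 6 stood above the other AX libraries for Atp5a1 (366 CPM, others 237 to 268), Atp5b (479 CPM, others 103 to 211), Atp5j2 (58.8 CPM, others 32.9 to 39.1) and Cox6a1 (112 CPM, others 89.7 to 91.6). These are subunits of the ATP synthase head and membrane part and, in Cox6a1, a steady subunit of complex IV. NC 1 stood above the other NC libraries for Uqcrc2 (79.3 CPM, others 37.4 to 47.3) and below them for Atp5f1 (217 CPM, others 282 to 288). NC 5 stood above the others for Cox5a (139.8 CPM, others 108 to 117) and for Cycs (31.9 CPM, others 13.1 to 15.96), and below them for Cox7c (3.69 CPM, others 6.39 to 6.96).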

How the results depend on the processing

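No gene of the table had an adjusted p under 0.05 in any of the alternatives except 1, Rnf24, which is no respiratory gene, without NC 3; the count thus ran from 0 to 1 over the fits that left out a library. The count of members at an unadjusted p under 0.05 was 1 of 42 (2.38%) with no filter on low counts, against 1.59% of all genes. It ran from 0 to 7 when a library was left out, where 0.795% to 3.49% of all genes passed that threshold. The count of genes with lower fitted values ran from 30 (without NC 1) to 37 (without NC 2) in the same fits, and was 31 of 36 with the stricter filter, 34 of 37 with log2(FPKM + 1), 37 of 39 with totals alone and 35 of 42 with no filter. The median log2 fold change stayed negative, from -0.12 with no filter to -0.25 with FPKM; it was -0.23 with totals alone, -0.24 without AX 6 and -0.22 without NC 3. Totals alone moved the median of all genes from 0.02 to -0.04 and the share of all genes lower in AX from 46.4% to 56.8%. With limma-voom these were -0.0029 and 50.5%, and with FPKM, where the test and the genes tested differ as well, -0.06 and 63.6%. The members' median minus that of all genes ran from -0.15 with TMM to -0.24 without NC 3.

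Of 360 values for 20 single genes under the alternatives, 345 kept their direction, and 15 of the 20 genes never changed it. Cycs was at -0.0082 with limma-voom, -0.0047 with totals alone and -0.031 with FPKM. Leaving out a library gave -0.21 to 0.40 for Cycs, -0.62 to 0.10 for Atp5b, -0.58 to 0.17 for Uqcrc2, -0.25 to 0.079 for Atp5j2 and -0.047 to 0.36 for Cox7c; the cause was not tested. The smallest adjusted p among these values was 0.9989. No paired analysis was possible because the groups share no replicate number. At 10221170 counts or more per library depth does not limit the abundant subunits, and it limits Cox4i2, Cox6b2, Cox7a1, Atp5g2 and Atp5s, which had few counts in each library.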
